A study of Mus musculus with 14 samples.

Results

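The 6 genes that are read as signs of how macrophages are activated, namely Arg1, Nos2, Acod1, Chil3, Mrc1 and Clec4d, were followed across transplanted mouse hearts. They are 6 of the 8251 genes that the table's probe sets name, and were found as the probe sets that the array's annotation gives to these symbols or their older synonyms, 7 of the 12422 probe sets that are not controls. Of the 7, 6 passed the filter on dim signals, 1 for each gene; the other, a second Acod1 probe set, did not. The genes were chosen with earlier results of these arrays in view, and so partly selected on their signal in rejecting hearts, where Arg1, Acod1 and Clec4d were known to be high. In the comparisons that involve rejecting hearts, all 6 genes are therefore described without a test.

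RNA from transplanted hearts was hybridised to 14 oligonucleotide arrays of the type MG-U74Av2, and n below counts arrays. Isografts were C57/BL6 hearts in C57/BL6 recipients, taken at day 7 (n = 3) or day 70 (n = 2). Allografts were Balb/c hearts in C57/BL6 recipients. They were either untreated and rejecting at day 7 (n = 3), or tolerizing under a monoclonal antibody treatment against CD80/86, ligands through which antigen-presenting cells costimulate T cells, at day 7 (n = 3) or day 70 (n = 3). All recipients were thus of the same strain, and whenever an allograft is set against an isograft, so is a Balb/c against a C57/BL6 donor, and the parts of donor strain and immune response cannot be told apart. The labels give no age or sex, and do not say whether replicates came from separate operations, so the p-values measure only the spread between these arrays.

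Macrophages take on different programmes depending on the signals around them. Interferon-gamma and microbial products induce Nos2, the inducible nitric oxide synthase, which makes nitric oxide from arginine, and Acod1, which makes itaconate from the Krebs cycle intermediate cis-aconitate. Interleukin-4 and interleukin-13, acting through Stat6, induce Arg1, which splits arginine into ornithine and urea and so competes with Nos2 for its substrate, together with Chil3, a secreted chitinase-like protein also called Ym1, and Mrc1, the mannose receptor. Arg1 can also be induced without Stat6, by cyclic AMP, hypoxia, Toll-like receptor signals and the factor C/EBP-beta. Clec4d is a C-type lectin of myeloid cells that pairs with Clec4e and signals through the adaptor Fcer1g. Chil3 and Clec4d are made by neutrophils as well, and Arg1 is abundant in the liver.

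The RefSeq table used here (GRCm38.p6) lists a promoter window, from 250 bases before to 50 bases after the gene's start, for 4 of the 6 genes: Acod1, Chil3, Mrc1 and Clec4d. Arg1 and Nos2 have no entry. The 4 windows are shown because these genes took different courses in the rejecting hearts described below. Capitals mark letters that match one of the motifs searched, on either strand, each window being written 5′ to 3′ along its gene. No matches overlapped one another.
Acod1 (chr14:103046762-103047061, plus strand): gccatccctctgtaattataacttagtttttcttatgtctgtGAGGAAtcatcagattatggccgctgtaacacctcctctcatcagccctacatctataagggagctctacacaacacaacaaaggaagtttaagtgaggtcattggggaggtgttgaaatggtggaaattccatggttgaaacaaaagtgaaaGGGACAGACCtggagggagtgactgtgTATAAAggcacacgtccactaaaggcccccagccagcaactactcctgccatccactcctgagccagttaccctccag
Clec4d (chr6:123261857-123262156, plus strand): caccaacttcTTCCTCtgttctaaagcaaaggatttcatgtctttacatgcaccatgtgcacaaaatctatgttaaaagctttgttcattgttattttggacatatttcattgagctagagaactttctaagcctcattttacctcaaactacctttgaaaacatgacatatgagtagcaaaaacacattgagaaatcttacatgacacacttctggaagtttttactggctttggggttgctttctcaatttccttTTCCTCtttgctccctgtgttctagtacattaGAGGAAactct
Chil3 (chr3:106167515-106167814, minus strand): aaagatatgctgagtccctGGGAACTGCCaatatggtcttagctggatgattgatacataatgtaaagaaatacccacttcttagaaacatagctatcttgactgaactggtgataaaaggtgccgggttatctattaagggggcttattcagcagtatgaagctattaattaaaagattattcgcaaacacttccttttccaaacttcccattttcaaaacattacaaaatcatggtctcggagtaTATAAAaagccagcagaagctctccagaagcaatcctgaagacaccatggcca
Mrc1 (chr2:14229164-14229463, plus strand): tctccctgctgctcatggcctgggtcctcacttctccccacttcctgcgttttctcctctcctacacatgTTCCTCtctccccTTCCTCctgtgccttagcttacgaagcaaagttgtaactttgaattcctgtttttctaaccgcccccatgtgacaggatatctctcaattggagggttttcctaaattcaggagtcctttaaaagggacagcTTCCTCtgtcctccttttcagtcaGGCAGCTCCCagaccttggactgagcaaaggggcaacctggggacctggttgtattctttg

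Acod1 and Chil3 hold the letters of the TATA box motif (TATAAA), as 13.6% of the table's 32851 promoter windows do. Their first base lies 28 bases before the listed start in Acod1 and 3 bases before it in Chil3. Acod1, Chil3 and Mrc1 each have 1 match to a loose NF-kB-type pattern (3 guanines and 2 cytosines around any 5 bases), which 50.8% of windows also hold. Clec4d and Mrc1 have 3 matches each, and Acod1 1, to the core of a site for PU.1, the macrophage and granulocyte factor (GAGGAA, in 28.3% of windows). The letters of a STAT6-type site (in 6.95% of windows), a C/EBP site (TTGCNNAA, 10.8%) and an AP-1 site (TGANTCA, 7.81%) are not in these 4 windows. A match describes the letters only.

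Signals below are the deposited linear intensities; values below 11, which is their 25th percentile, were raised to this floor before log2 was taken, and differences are on that log2 scale with their standard error (SE). The median signal of an array lay between 38.2 and 45.65. Further features of the arrays touch the results. The 5 arrays with the lowest accession numbers (replicate 3 of 4 groups and replicate 2 of the isografts at day 70) had an 18S control signal of 30.3 to 83.4, and the other 9 had 120.4 to 254.6. No label gives a cause. The ratio of beta-actin's 3′ to 5′ signal, a sign of how intact the RNA was, was 1.52 to 1.98 in isografts and 1.09 to 1.37 in tolerizing allografts at day 7, and 1.26 to 1.61 in rejecting allografts. Replicate 3 of the rejecting allografts is 1 of the 5 arrays and stood apart in what follows, so values are also given without it.

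The Arg1 signal was 3791.6, 2971.7 and 314.1 on the 3 arrays of rejecting allografts. It was 29.9, 109.6 and 77.6 in isografts at day 7 and 77.1, 32.8 and 105.9 in tolerizing allografts at day 7. All 3 rejecting arrays lay above the other 11, but the third stood far under the first and second. The mean was 2359 ± 1818 (SD, n = 3) in rejecting allografts, 72.4 ± 40.1 in isografts and 71.9 ± 36.8 in tolerizing allografts. The difference was 4.59 on the log2 scale (SE 0.87), or 24.1-fold, against isografts, and 4.56 (SE 0.87), or 23.6-fold, against tolerizing allografts. Without replicate 3 of the rejecting allografts these differences were 5.73 and 5.70. Within the 5 arrays of low 18S signal, with 1 array a group, they were 2.02 and 1.57; within the other 9 they were 5.87 and 6.06. By group mean, Arg1 ran from rejecting allografts through isografts and tolerizing allografts at day 7 to tolerizing allografts at day 70 (28.8 ± 24.9) and isografts at day 70 (values of 2.8 and 29.2). Neighbours in this order below the rejecting allografts overlapped, and 1 array of either day 70 group was under the floor, the tolerizing one at 4.0.

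**Figure D1:**
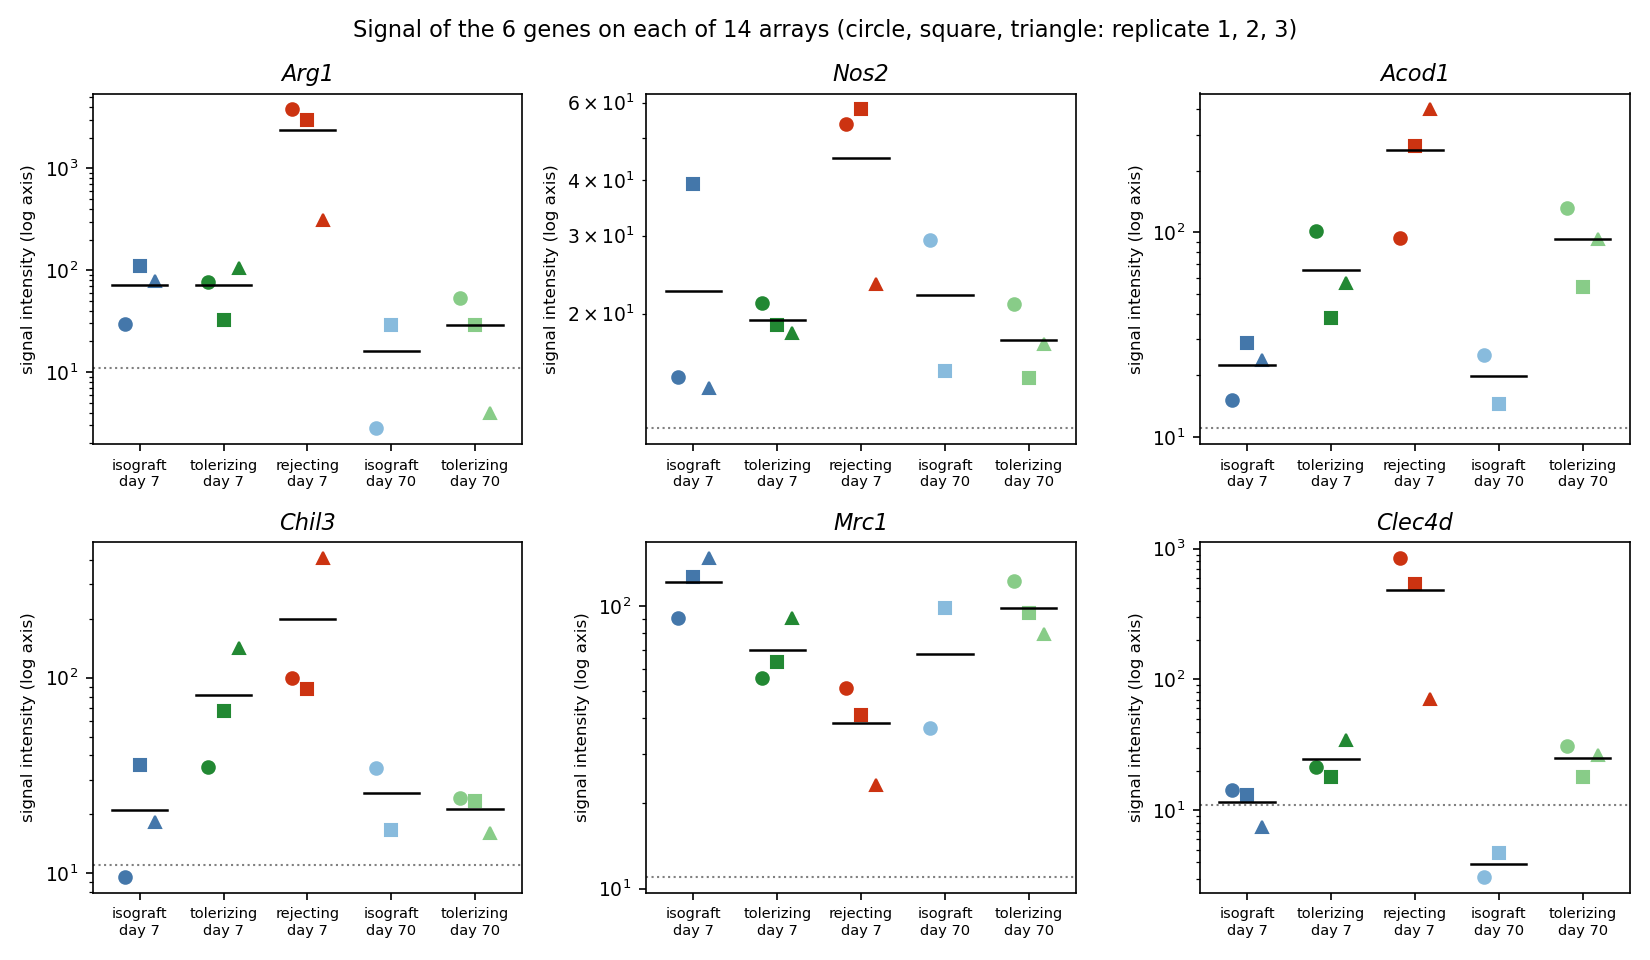
Signal intensity of Arg1, Nos2, Acod1, Chil3, Mrc1 and Clec4d (log axes) on each of the 14 arrays, by group; points are arrays, black bars group means and the dotted line the floor of 11. Arg1 and Clec4d are highest on replicates 1 and 2 of the rejecting allografts, Acod1 and Chil3 on replicate 3, and Mrc1 is lowest on replicate 3.

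Nos2, the enzyme that shares arginine with Arg1, was dim on every array. Its signal was 53.7, 57.9 and 23.3 in rejecting allografts, 14.4, 39.3 and 13.6 in isografts and 21.1, 18.8 and 18.1 in tolerizing allografts at day 7. Replicate 3 of the rejecting allografts was under the highest isograft, so these groups overlapped, while all 3 rejecting arrays were above all 3 tolerizing ones. The difference was 1.08 (SE 0.44) against isografts and 1.11 (SE 0.44) against tolerizing allografts, and without replicate 3 it was 1.50 and 1.53. In the groups at day 70 Nos2 read between 14.3 and 29.3. In order of the mean, Nos2 ran from rejecting allografts (45.0 ± 18.9, n = 3) to isografts at day 7 (22.4 ± 14.6) and day 70 (22.1 ± 10.3, n = 2) and tolerizing allografts at day 7 (19.3 ± 1.57) and day 70 (17.5 ± 3.37), and each pair of neighbours overlapped.

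Around these enzymes, 24 of the 32 listed genes of arginine, nitric oxide and polyamine metabolism were measurable. This list and the later ones were chosen with earlier results of these arrays known, so nothing is read from their counts. In rejecting allografts against isografts, where 17.7% of all probe sets passed the limma test at an adjusted p under 0.05 and 9.08% of genes were called higher and 10.6% lower, 6 of the 24 rose and 4 fell, with a median difference of 0.04 beside 0.02 over all genes. Gatm, which moves the amidino group of arginine onto glycine in creatine synthesis, rose from 83.9 to 366.3 (log2 2.12, SE 0.24, limma adjusted p = 0.000121). Arg2, the mitochondrial arginase, rose from 11.4 to 35.2 (1.46, SE 0.23, limma adjusted p = 0.00105). Ass1, which rebuilds arginine from citrulline, rose by 1.24 (SE 0.26), and Slc3a2, the heavy chain of amino acid transporters, by 1.21 (SE 0.23). The list also holds enzymes that make tetrahydrobiopterin, a cofactor of the nitric oxide synthases. Gch1, the first of them, rose by 0.91 (SE 0.23), and Pts and Spr, which act after it, fell by 1.25 (SE 0.30) and 1.40 (SE 0.30). These 3 were picked after their values were seen. The Gch1 call was lost under 4 of 15 alternative settings, one of which left out replicate 1 of the isografts (limma adjusted p of 0.0513 to 0.0708), that of Pts under 1 of 16 (0.0779) and that of Spr under 1 of 16 (0.0717). Odc1, which turns ornithine into putrescine, had a difference of 0.65 (SE 0.23, limma adjusted p = 0.0725), the arginine transporter Slc7a2 one of 0.46 (SE 0.30) and the endothelial synthase Nos3 one of -0.95 (SE 0.50), none past the threshold. Without replicate 3 of the rejecting allografts the counts were again 6 and 4. Cardiomyocyte and endothelial markers were lower and macrophage markers higher in the same comparison, with values given below, and their part in these changes was not tested.

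Arg2 was also higher in rejecting than in tolerizing allografts. It read 32.4, 46.4 and 26.9 in the former and 9.7, 15.1 and 14.4 in the latter, with no overlap. The difference was 1.36 (SE 0.23, limma adjusted p = 0.0118), the only one of the 24 called in that comparison, where 1.41% of probe sets were called and 0.57% of genes were higher and 1.1% lower. It missed the threshold when only these groups entered the fit (limma adjusted p = 0.177), with a pseudocount in place of the floor (0.0692) and with the beta-actin ratio in the fit (0.0578). Gatm, in contrast, read 304.2, 323.2 and 265.5 in tolerizing allografts at day 7 and 82.3, 93.7 and 75.7 in isografts. It rose by 1.83 there (SE 0.24, limma adjusted p = 0.00132) and by 1.95 at day 70 (SE 0.27, limma adjusted p = 0.00118), the only call of the list in either comparison, beside 0.937% and 2.2% of genes called higher and 0.842% and 0.95% called lower. The call at day 7 was lost in the 9 arrays of high 18S signal alone (limma adjusted p = 0.0676) and with the beta-actin ratio in the fit (0.0662), and that at day 70 with its groups fitted alone (0.137).

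**Figure D2:**
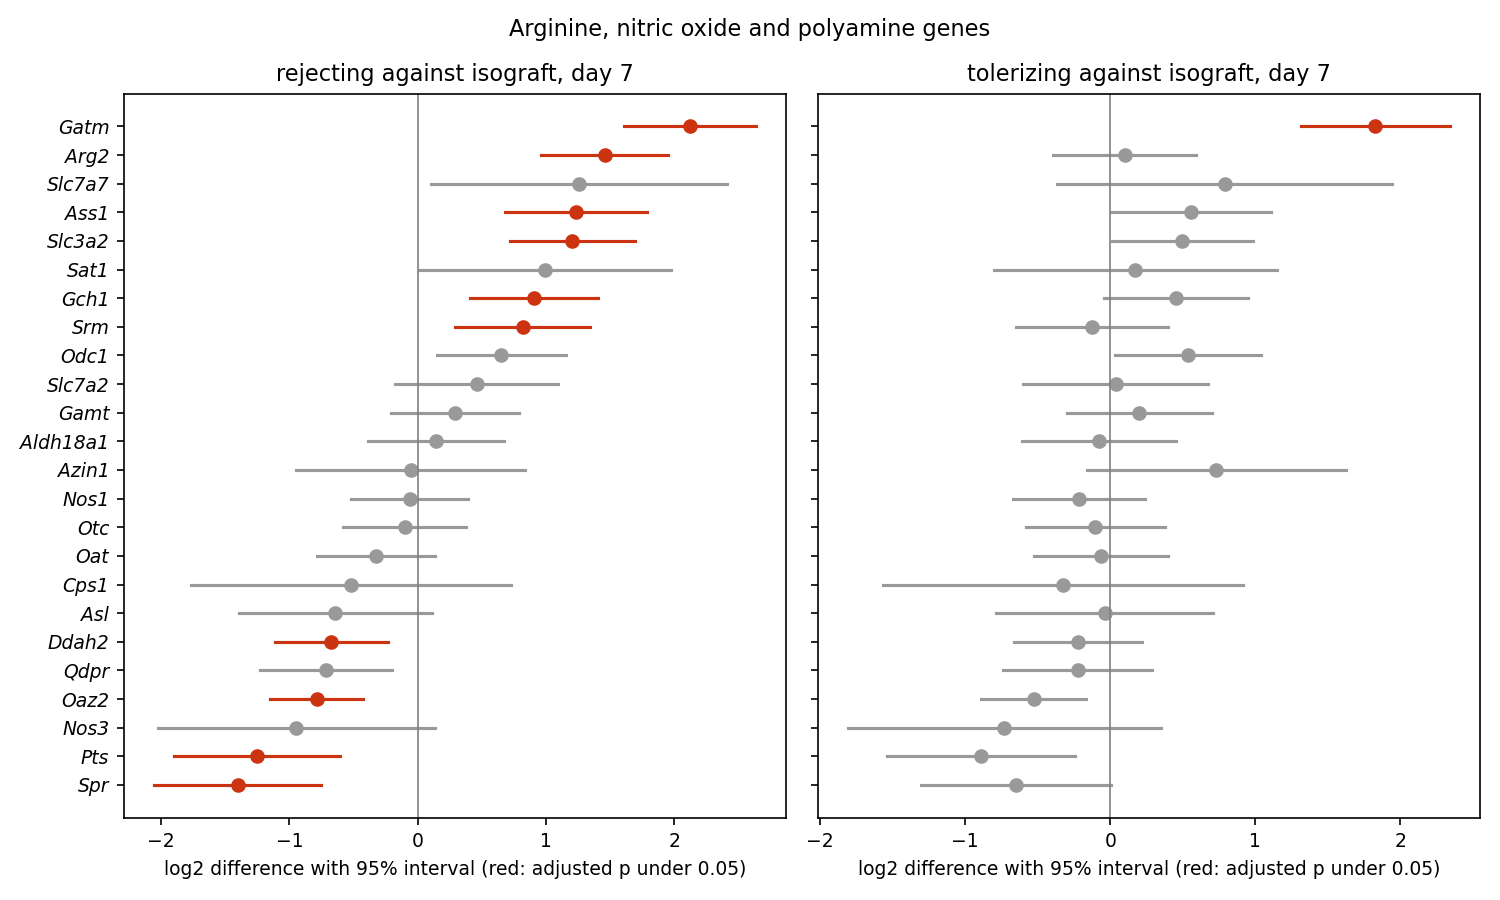
Log2 difference with its 95% interval for the 24 measurable genes of arginine, nitric oxide and polyamine metabolism, in rejecting (left) and tolerizing (right) allografts against isografts at day 7; red marks an adjusted p under 0.05. On the left 6 genes rose and 4 fell, led by Gatm at 2.12, and on the right Gatm alone is past the threshold, at 1.83.

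Acod1, the itaconate enzyme, followed another course than Arg1. Its signal was 93.9, 264.8 and 398.2 in rejecting allografts, highest on the array where Arg1 was lowest. It was 15.1, 28.8 and 23.7 in isografts and 101.8, 38.1 and 56.3 in tolerizing allografts at day 7. Every allograft at day 7 lay above every isograft, and 1 rejecting array (93.9) lay under the highest tolerizing one (101.8). The difference in rejecting allografts was 3.30 (SE 0.53), or 9.87-fold, against isografts, and 1.83 (SE 0.53) against tolerizing allografts; without replicate 3 it was 2.86 and 1.39. At day 70 Acod1 read 130.7, 54.2 and 93.0 in tolerizing allografts and 25.1 and 14.4 in isografts, again with no overlap. The groups ran from rejecting allografts (mean 252.3 ± 152.5, n = 3) to tolerizing allografts at day 70 (92.6 ± 38.3) and day 7 (65.4 ± 32.8), then isografts at day 7 (22.5 ± 6.92) and day 70 (19.8 ± 7.57, n = 2), and the overlaps lay among the allografts and among the isografts. The second Acod1 probe set was above the floor on 2 arrays only, replicates 2 and 3 of the rejecting allografts, at 20.3 and 11.6.

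Of 14 measurable genes among the 16 listed for aconitate, itaconate and succinate, 8 fell in rejecting allografts against isografts and 2 rose, with a median of -1.26. Of all genes, 10.6% were called lower and 9.08% higher there. The 8 were citrate synthase and subunits of succinate dehydrogenase and succinyl-CoA ligase, led by Sdha (-2.28, SE 0.40, limma adjusted p = 0.00193) and followed by Sucla2 (-1.73, SE 0.33) and Suclg2 (-1.72, SE 0.35). Aco1, the cytosolic aconitase, differed by -0.27 (SE 0.36, limma adjusted p = 0.694). The 8 mitochondrial genes are abundant in heart muscle, and 8 of 9 cardiomyocyte markers were called lower in the same comparison, with a median of -2.45; the part of muscle loss in the falls was not tested. The 2 rises were not of enzymes of these metabolites. They were Atf3, a stress-response factor (1.80, SE 0.22, limma adjusted p = 0.000212), and Hmox1, the haem-degrading enzyme (1.91, SE 0.44, limma adjusted p = 0.00847, and 0.0781 with the 2 groups alone). Atf3 was also called higher in tolerizing allografts against isografts at day 7, the only call of the list there, beside 0.937% of genes. That call was lost under several settings, among them the beta-actin ratio in the fit (limma adjusted p = 0.313) and the 2 groups alone (0.0917). Hmox1 read 3408.9, 4203.8 and 1049.2 in rejecting allografts, low on the third array as Arg1 was, and its difference from tolerizing allografts was 1.99 (SE 0.44, limma adjusted p = 0.0433), a call that 11 of 16 alternative settings lost.

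Over the rejecting arrays Clec4d took the same order as Arg1, while its order over the 5 group means was that of Acod1. Its signal was 848.5, 538.6 and 71.1 in rejecting allografts, against 14.3, 13.1 and 7.4 in isografts and 21.4, 17.9 and 34.7 in tolerizing allografts at day 7. No other array exceeded 34.7, and the lowest rejecting array was again the third. The difference was 4.65 (SE 0.67), or 25.1-fold, against isografts and 3.75 (SE 0.67), or 13.5-fold, against tolerizing allografts; without replicate 3 it was 5.73 and 4.83. Within the 5 arrays of low 18S signal it was 2.69 and 1.03, and within the other 9 it was 5.63 and 5.11. The group means ran from 486.1 ± 391.4 (SD, n = 3) in rejecting allografts to 25.1 ± 6.62 and 24.7 ± 8.86 in tolerizing allografts at day 70 and day 7, which overlapped, 11.6 ± 3.69 in isografts at day 7 and 3.90 ± 1.13 (n = 2) in isografts at day 70, where both arrays were under the floor.

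Of 20 listed myeloid lectin receptors and their adaptors, 12 were measurable, and 7 rose and 0 fell in rejecting allografts against isografts, with a median of 0.89. Of all genes, 9.08% were called higher and 10.6% lower there. In rejecting against tolerizing allografts 0.57% were called higher, and in tolerizing allografts against isografts at day 70 it was 2.2%. Fcer1g, the adaptor through which Clec4d signals, read 108.4, 120.8 and 109.2 in rejecting allografts and 8.6, 12.5 and 5.4 in isografts, 2 of them under the floor (3.29, SE 0.58, limma adjusted p = 0.00185), level on the 3 arrays where Clec4d was not. Lgals3, galectin-3, rose by 2.92 (SE 0.40, limma adjusted p = 0.000458) and the adaptor Tyrobp by 2.08 (SE 0.40). Clec4e, the partner receptor, stayed between 2.4 and 26.9 on all 14 arrays. Against tolerizing allografts Lgals3 alone was called (1.96, SE 0.40, limma adjusted p = 0.0275). That call was lost under 7 of 16 alternative settings: without a filter (0.0977), with the beta-actin ratio in the fit (0.0672), with the 2 groups alone (0.0793) and without replicate 1 or 2 of the rejecting or 2 or 3 of the tolerizing allografts (0.0922 to 0.156). In tolerizing allografts against isografts at day 7 limma called 0 of the 12, with 4 at an unadjusted p under 0.05, beside 13% of probe sets. At day 70, 2 of the 12 rose, Lgals3 (2.49, SE 0.45, limma adjusted p = 0.00729) and Tyrobp (2.35, SE 0.45, limma adjusted p = 0.0108), with a median of 0.59. Both were lost with the 2 groups alone (0.216 and 0.252) and without replicate 1 of the isografts (0.0999 and 0.152), and Tyrobp without replicate 1 of the tolerizing allografts (0.0536).

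The mean of Chil3 was higher in both allograft groups at day 7 than in isografts. It read 99.9, 87.2 and 408.3 in rejecting allografts, 34.8, 67.5 and 141.4 in tolerizing allografts and 9.6, 35.6 and 18.3 in isografts. Replicate 3 was the highest array in either allograft group. All rejecting arrays lay above all isografts, by 2.99 (SE 0.64) or 7.92-fold, and overlapped the tolerizing ones, at a difference of 1.14 (SE 0.64). Without replicate 3 of the rejecting allografts these differences were 2.28 and 0.43. At day 70 Chil3 was 24.3, 23.3 and 16.1 in tolerizing allografts and 34.6 and 16.6 in isografts. Its order by mean was rejecting (198.5 ± 181.8, n = 3), tolerizing at day 7 (81.2 ± 54.6), isograft at day 70 (25.6 ± 12.7, n = 2), tolerizing at day 70 (21.2 ± 4.47) and isograft at day 7 (21.2 ± 13.2), and each pair of neighbours overlapped except tolerizing at day 7 and isograft at day 70, whose nearest arrays read 34.8 and 34.6.

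Mrc1, the mannose receptor of resident and interleukin-4 treated macrophages, was the only one of the 6 that was lower in rejecting hearts. It read 51.1, 41.2 and 23.3 there, 90.7, 126.7 and 148.0 in isografts and 55.8, 63.2 and 91.0 in tolerizing allografts at day 7. The rejecting arrays lay under all arrays of both other groups. The difference was -1.71 (SE 0.39), a signal 3.26-fold lower, against isografts and -0.90 (SE 0.39) against tolerizing allografts. Without replicate 3 it was -1.38 and -0.58, and among the 9 arrays of high 18S signal it was -1.22 and -0.37. At day 70 it was 122.3, 94.5 and 79.3 in tolerizing allografts and 36.9 and 98.3 in isografts. From the top, the means were 121.8 ± 29.0 in isografts at day 7, 98.7 ± 21.8 in tolerizing allografts at day 70, 70.0 ± 18.6 in those at day 7, 67.6 ± 43.4 (n = 2) in isografts at day 70 and 38.5 ± 14.1 in rejecting allografts, and each pair of neighbours overlapped. Endothelial markers were lower in the same hearts. Of 10 listed 9 were measurable, and 5 fell in rejecting allografts against isografts, beside 10.6% of genes called lower. The median was -0.99, and among the 5 were Tek (-1.90, SE 0.28, limma adjusted p = 0.000679), Tie1 (-1.98, SE 0.38) and Vwf (-2.08, SE 0.46). Against tolerizing allografts Tek alone was called (-1.43, SE 0.28, limma adjusted p = 0.0224), beside 1.1% of genes called lower, with a median of -0.43. Their summed signal was 1104.6 to 1267.2 in rejecting allografts, 1496.3 to 1662.0 in tolerizing allografts and 1844.6 to 2642.1 in isografts at day 7. Their part in the levels of Mrc1 and Nos3 was not tested.

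Counted over the 6 genes, 4 had all rejecting arrays above all isografts, where 15.8% of genes did, and 1 had all below, where 16.8% did, signals under the floor being taken as equal. Against tolerizing allografts 3 were all above, beside 9.04% of genes, and 1 all below, beside 8.4%. The genes were picked with these comparisons known, so nothing is read from the counts. The 2 comparisons share the rejecting arrays.

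**Figure D3:**
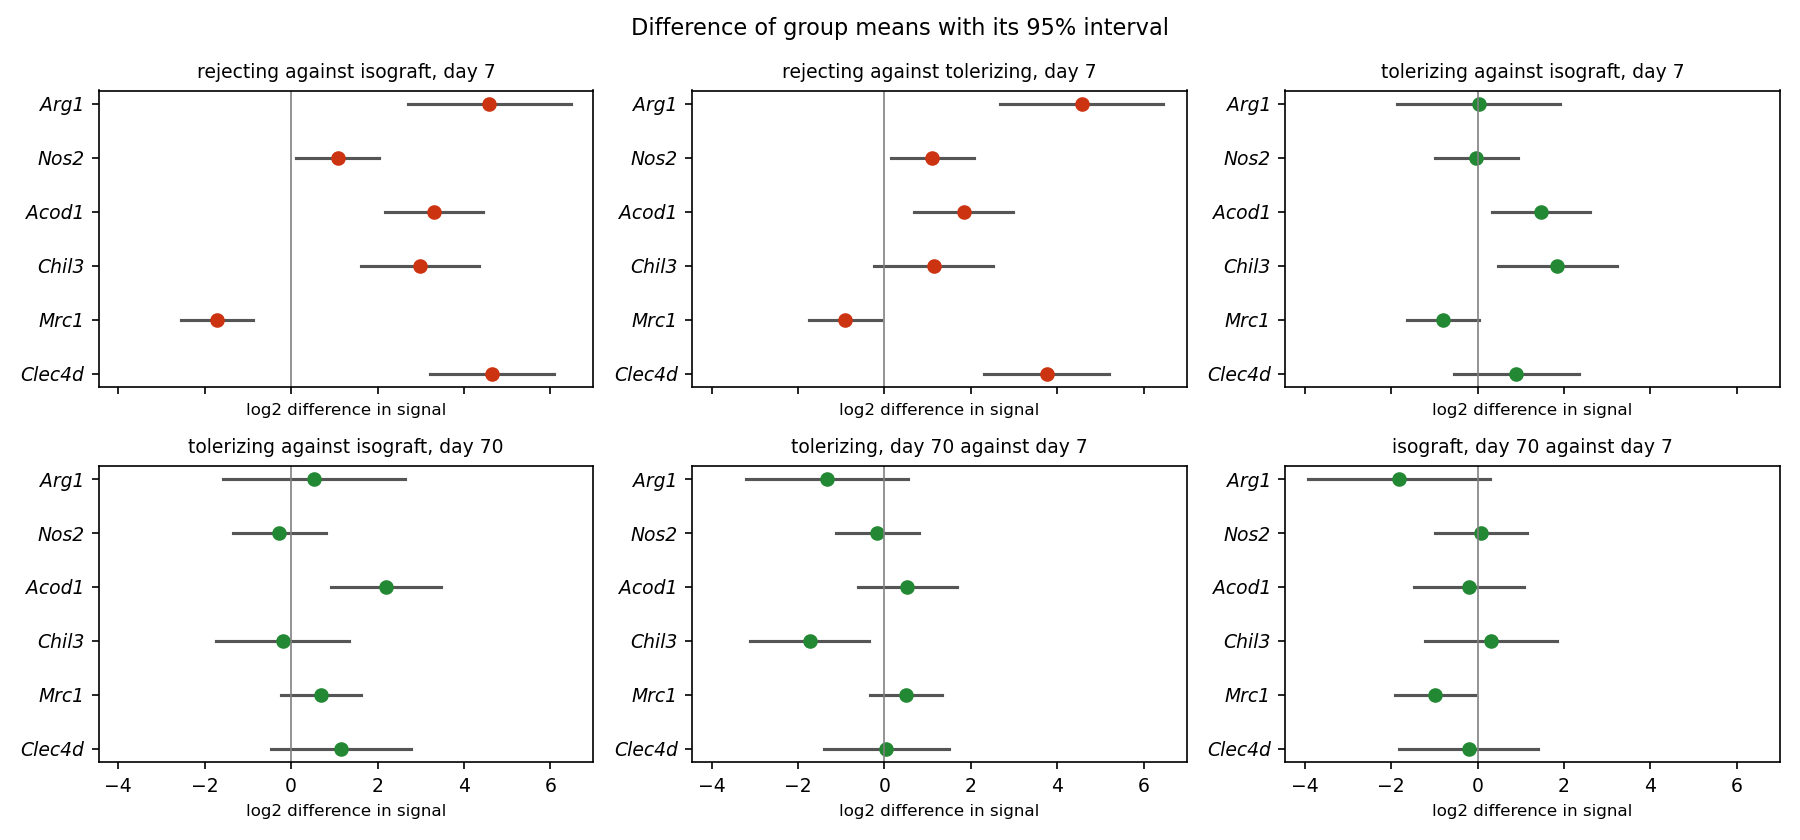
Log2 difference of group means with its 95% interval for the 6 genes in the 6 comparisons between groups; red points are comparisons with rejecting allografts, given as descriptions, and green points were tested, with no call. Arg1 stands at 4.59 and 4.56 in red and at 0.02 in tolerizing allografts against isografts at day 7.

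The 3 rejecting allografts fell apart along these genes. On the log2 scale, replicate 3 was lower than the mean of replicates 1 and 2 by 3.42 for Arg1 and 3.25 for Clec4d. Of the 7366 genes measured, 0.149% and 0.204% had a gap of that size or more in either direction. Arg1 and Clec4d were picked as high on these arrays, and genes near the floor have little room for such a gap. Nothing is therefore read from these shares or those that follow. Replicate 3 was higher than that mean by 1.34 for Acod1 and 2.13 for Chil3 (9.53% and 1.82% of genes), and it differed by -1.26 for Nos2 and -0.98 for Mrc1 (11.1% and 20.4%). For Acod1 the array farthest from replicate 2 was replicate 1, at log2 signals of 6.55, 8.05 and 8.64 on replicates 1, 2 and 3. Replicate 3 read 20152.2 in summed cardiomyocyte markers, where replicates 1 and 2 read 4167.4 and 5951.3. Its summed T cell markers were 2735.7, against 652.3 and 1145.1, with Cd8a, a chain of the co-receptor of cytotoxic T cells, at 466.0 against 70.0 and 216.4, and its neutrophil markers 973.8, against 3726.1 and 1645.7. Macrophage and monocyte markers were nearer each other, at 18246.3 against 22065.6 and 22317.2. The part of these cell types, of the array's 18S signal or of the heart itself in the gap was not tested.

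**Figure D4:**
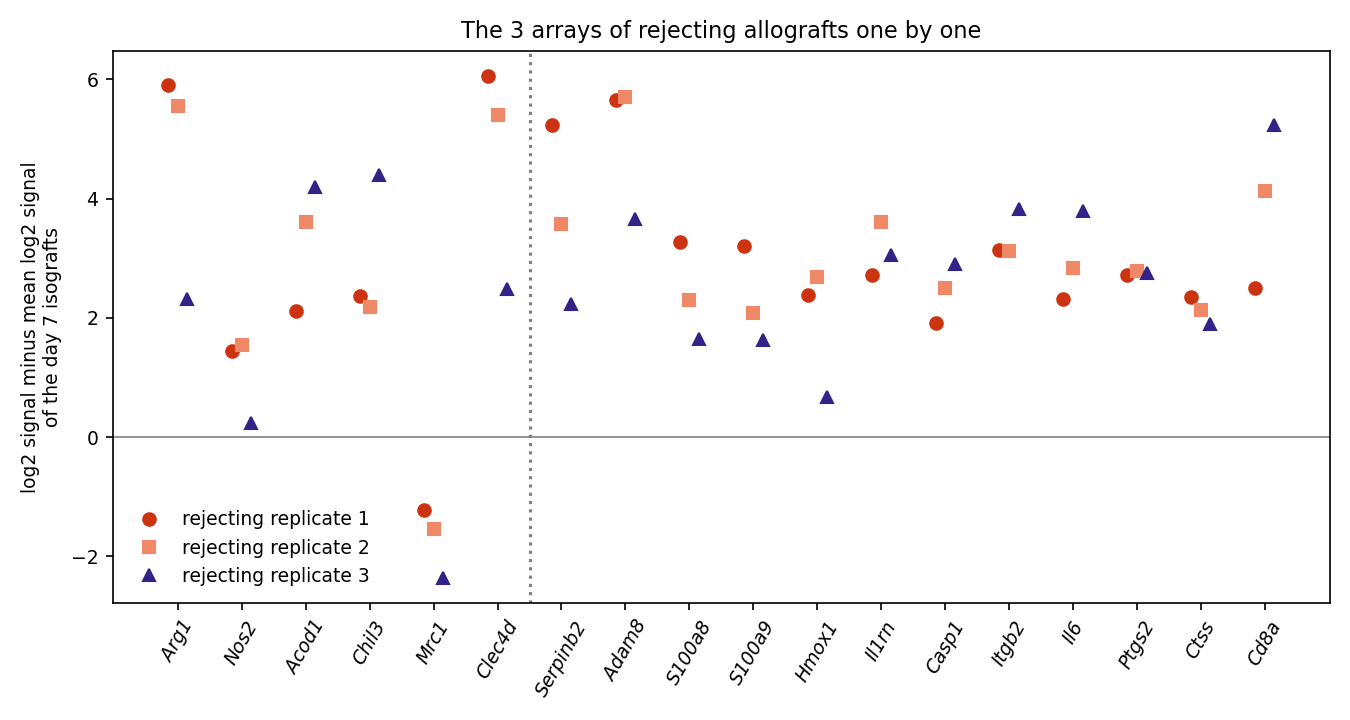
Log2 signal of each of the 3 rejecting allograft arrays minus the mean of the isografts at day 7, for the 6 genes (left of the dotted line) and 12 other genes named in the text. Replicate 3 (triangles) is the lowest for Arg1, Nos2, Mrc1, Clec4d, Serpinb2, Adam8, S100a8, S100a9, Hmox1 and Ctss. It is the highest for Acod1, Chil3, Casp1, Itgb2, Il6 and Cd8a, and lies between the others for Il1rn and Ptgs2.

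At either day the summed signal of macrophage and monocyte markers was higher in every allograft than in every isograft. Of 19 listed, 16 were measurable, and their sum was 18246.3 to 22317.2 in rejecting allografts, 11827.5 to 18605.5 in tolerizing allografts and 7230.2 to 8785.1 in isografts at day 7. Against isografts 12 of the 16 rose in rejecting allografts, with a median of 1.40, among them Ctss, a lysosomal protease (2.13, SE 0.32), and Itgam, an integrin of myeloid cells (2.83, SE 0.49). Of all genes, 9.08% were called higher there. In tolerizing allografts against isografts 0.937% were called higher at day 7 and 2.2% at day 70. In tolerizing allografts at day 7 the median was 0.87 with 1 call, Ctss (1.50, SE 0.32), and at day 70, with sums of 11882.7 to 18766.5 beside 2478.1 and 5738.7 in isografts, 9 rose and the median was 1.82. These day 70 calls rest on 2 isografts that stood apart, with a mean log2 marker signal of 6.61 on replicate 1 and 7.77 on replicate 2. The calls of the markers Csf1r and Tyrobp were lost with the 2 groups alone (limma adjusted p = 0.244 and 0.252). Between rejecting and tolerizing allografts limma called 0 of the 16, with 7 at an unadjusted p under 0.05, beside 15.1% of probe sets, and a median of 0.57. Arg1, picked as high in rejecting hearts, differed by 4.56 there, and the part of macrophage number in this was not tested. In whole-heart RNA, the number of cells of a type and the RNA per cell cannot be told apart.

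Other cells that can hold these transcripts were read as well. Of 11 measurable neutrophil markers among 15 listed, 2 were called higher in rejecting allografts against isografts, beside 9.08% of genes. They were S100a8 (2.41, SE 0.54, limma adjusted p = 0.00773) and S100a9 (2.31, SE 0.56, limma adjusted p = 0.0120). The granule genes Ngp (1.68, SE 0.87), Camp (1.42, SE 0.65), Prtn3 (1.22, SE 0.45), Ltf (0.70, SE 0.75), Elane (0.37, SE 0.31), Lcn2 (-0.025, SE 0.29) and Mpo (-0.01, SE 0.29) did not pass. Over the 11, 9 differences were above 0 and the median was 0.70. An unadjusted limma p under 0.05 was found for 5 of them, beside 29.2% of probe sets. The summed neutrophil signal was 973.8 to 3726.1 in rejecting allografts, 510.6 to 837.2 in isografts and 555.4 to 1033.1 in tolerizing allografts at day 7, ordered over the rejecting arrays as Arg1 and Clec4d were. Its part in their levels was not tested. Of 8 measurable hepatocyte markers, limma called 0 (0 unadjusted) in rejecting allografts against isografts, and their sum was 69.5 to 166.3 in rejecting allografts and 89.0 to 135.4 in isografts; the highest values, 436.1 and 989.9, were on replicate 1 of the tolerizing allografts at day 7 and day 70, where Arg1 was 77.1 and 53.7. Eosinophil and mast cell markers had 4 measurable genes of 11, with 0 called (0 unadjusted) and sums of 126.5 to 204.1 in rejecting allografts and 134.3 to 211.3 in isografts.

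**Figure D5:**
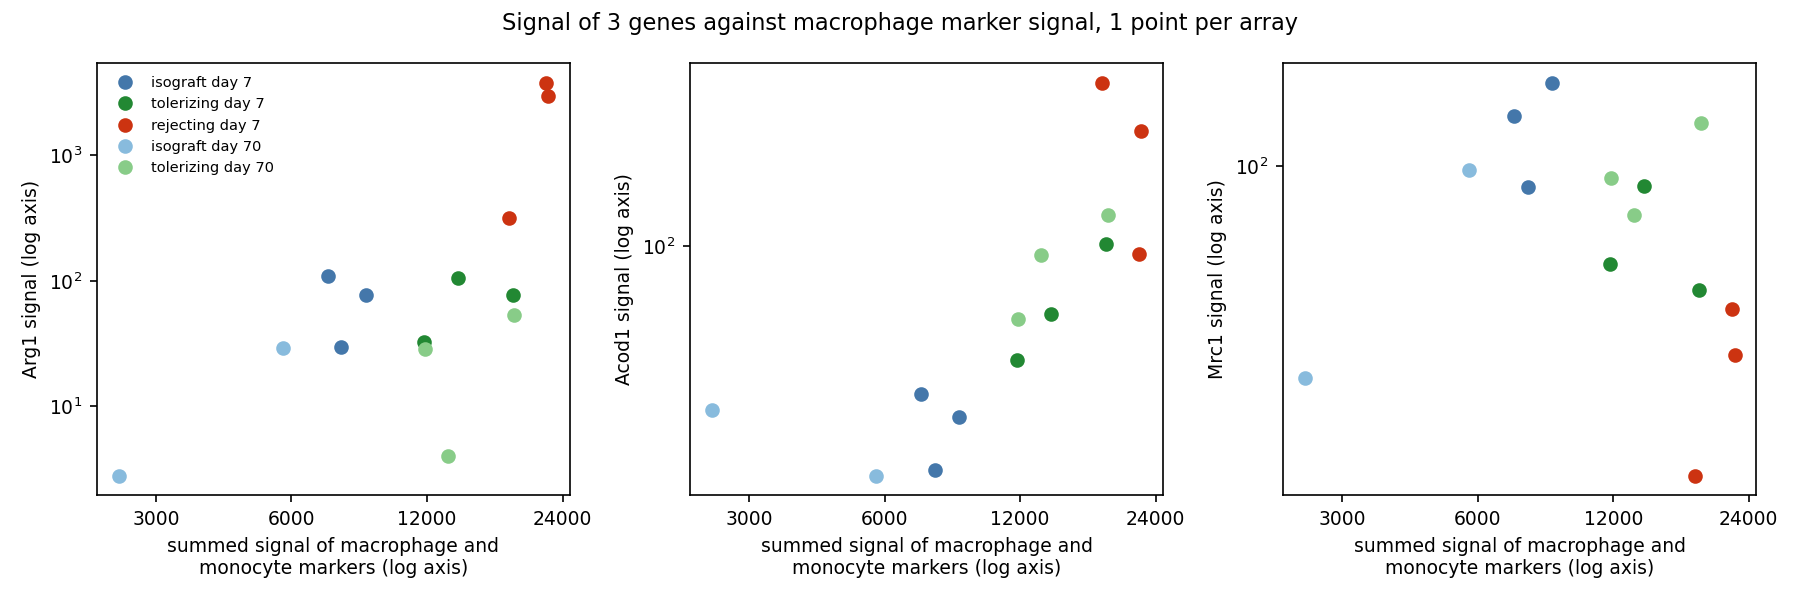
Signal of Arg1, Acod1 and Mrc1 against the summed signal of 16 macrophage and monocyte markers on each of the 14 arrays (log axes), coloured by group. The tolerizing arrays with the highest marker sums, 18605.5 and 18766.5, have Arg1 at 77.1 and 53.7. The rejecting arrays, at sums of 18246.3 to 22317.2, have Arg1 at 314.1 to 3791.6. The part of macrophage number in Arg1 was not tested.

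The interleukin-4 and interleukin-13 pathway is the textbook inducer of Arg1, Chil3 and Mrc1. Of its 27 listed genes 14 were measurable, and 2 rose in rejecting allografts against isografts, beside 9.08% of genes called higher. The median was 0.07. The 2 were Il4ra, a receptor chain (1.32, SE 0.35, limma adjusted p = 0.0175), and the scavenger receptor Msr1 (1.61, SE 0.45, limma adjusted p = 0.0249). Il4ra read 393.0, 334.1 and 186.3 in rejecting allografts, falling off on the third array, and 103.9 to 140.1 in isografts. Both calls were lost when replicate 1 or 2 of the rejecting allografts, or replicate 1 of the isografts, was left out, which left 0 of 14. That of Il4ra was also lost without replicate 2 of the isografts (limma adjusted p = 0.0638), and that of Msr1 without replicate 3 of the isografts (0.0755) and without a filter (0.0547). Interleukin-4 itself stayed between 3.2 and 19.2 on all 14 arrays, and Stat6 differed by 0.51 (SE 0.22, limma adjusted p = 0.130). In each of the other 5 comparisons between groups limma called 0 of the 14. At an unadjusted limma p under 0.05 there were 2 in tolerizing allografts against isografts at day 7, beside 13% of probe sets, and 4 at day 70, beside 15.4%. There were 3 in rejecting against tolerizing allografts, beside 15.1%. Over time there was 1 in tolerizing allografts, beside 6.2%, and 1 in isografts, beside 5.38%.

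Of the 34 listed genes of interferon-gamma, Toll-like receptor and classical activation, 26 were measurable, and 13 rose and 1 fell in rejecting allografts against isografts, with a median of 1.14. Of all genes, 9.08% were called higher and 10.6% lower there. In tolerizing allografts against isografts 0.937% were called higher at day 7 and 2.2% at day 70, and in rejecting against tolerizing allografts 0.57%. Slc11a1, a phagosomal metal transporter, rose by 2.14 (SE 0.24, limma adjusted p = 0.000130), and Cxcl9, a chemokine induced by interferon-gamma, by 3.77 (SE 0.48), from 91.4 to 1177.2. The factors Irf1 and Irf8 rose by 1.92 (SE 0.26) and 2.03 (SE 0.30). In tolerizing allografts at day 7 Cxcl9 rose by 3.78 (SE 0.48, limma adjusted p = 0.00131), Irf1 by 1.72 (SE 0.26) and Irf8 by 1.62 (SE 0.30), the 3 calls of the list there; all 3 were lost with the beta-actin ratio in the fit (limma adjusted p = 0.132, 0.254 and 0.243) and with the 2 groups alone (0.0506, 0.0506 and 0.0953), and that of Irf8 under 7 of 16 alternative settings in all, among them without replicate 1 or 3 of the tolerizing allografts (0.0827 and 0.0585) or replicate 1 of the isografts (0.0610). Against tolerizing allografts the rejecting ones were called higher in 2 of the 26, Ptgs2, the inducible cyclooxygenase (2.26, SE 0.41, limma adjusted p = 0.0169), and Slc11a1 (1.28, SE 0.24, limma adjusted p = 0.0206), with a median of 0.38. Both were lost when only these groups entered the fit (0.230 and 0.183), without a filter (0.0567 and 0.0548) and, among the arrays left out in turn, without replicate 1 or 2 of the rejecting (0.0515 to 0.0923) or replicate 2 of the tolerizing allografts (0.0963 and 0.107), and Slc11a1 without replicate 3 of the tolerizing allografts (0.0792). Ptgs2 was also lost with the beta-actin ratio in the fit (limma adjusted p = 0.0672), and Slc11a1 in the 9 arrays of high 18S signal alone (0.0752). At day 70, 4 genes rose in tolerizing allografts: Cxcl9 (4.96, SE 0.54), Slc11a1, Irf1 and Irf8. Without replicate 1 of the isografts Irf1 (limma adjusted p = 0.0524) and Irf8 (0.0999) were lost. In the 9 arrays of high 18S signal alone and with the 2 groups alone Slc11a1 (0.0570 and 0.0723) and Irf8 (0.0532 and 0.106) were lost.

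Among 21 listed genes for other routes to Arg1, 20 were measurable, and 9 rose and 3 fell in rejecting allografts against isografts, with a median of 0.56. Of all genes, 9.08% were called higher and 10.6% lower there. In rejecting against tolerizing allografts it was 0.57% and 1.1%. Cebpb, which encodes C/EBP-beta, rose by 1.36 (SE 0.27, limma adjusted p = 0.00414), reading 604.3, 658.9 and 515.3 in rejecting allografts and 185.7 to 283.1 in isografts. Hif1a, the hypoxia factor, rose by 1.15 (SE 0.25), and Ptger2, a prostaglandin E2 receptor that raises cyclic AMP, was at least 3.64-fold higher, since all 3 isografts were under the floor (limma adjusted p = 0.000443). Il6st, the shared receptor chain of interleukin-6 type cytokines, fell by 1.32 (SE 0.15, limma adjusted p = 0.000142). Ptger2 (1.38, SE 0.25, limma adjusted p = 0.0170) and Il6st (-0.98, SE 0.15, limma adjusted p = 0.00617) were also the 2 calls against tolerizing allografts. Both were lost when only these groups entered the fit (0.192 and 0.138) and without replicate 2 of the tolerizing allografts (0.0963 and 0.0508), and Ptger2 without replicate 2 of the rejecting allografts (0.0769). The 9 rises were 5 when replicate 2 of the rejecting allografts was left out and 5 when the fit held the beta-actin ratio.

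The 6 genes were tested in tolerizing allografts against isografts and over time, comparisons for which they had not been picked. The day 7 arrays used here also served the comparisons with rejecting hearts, so tests that use them are not free of that choice. None of the 6 passed limma's moderated test adjusted over the 10395 probe sets. An unadjusted p under 0.05 was found for 2 of the 6 at day 7, beside 13% of probe sets, 1 at day 70, beside 15.4%, and 1 over time in either kind of graft, beside 6.2% in tolerizing allografts and 5.38% in isografts. At day 7, where 1.69% of probe sets were called, Arg1 differed by 0.02 (SE 0.87, adjusted p = 1, 95% interval -1.86 to 1.91), an interval that includes falls and rises of more than 3-fold. Acod1 differed by 1.47 (SE 0.53, adjusted p = 0.231) and Chil3 by 1.84 (SE 0.64, adjusted p = 0.210). Mrc1 differed by -0.80 (SE 0.39, adjusted p = 0.412), Clec4d by 0.90 (SE 0.67, adjusted p = 0.658) and Nos2 by -0.03 (SE 0.44, adjusted p = 0.999). Acod1 and Clec4d had all tolerizing arrays above all isografts, 2 of 6 beside 9.91% of genes. In a fit that held the beta-actin ratio, Arg1 stood at 2.24 (adjusted p = 0.530), Acod1 at 0.96 and Mrc1 at -0.11.

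At day 70, where 3.2% of probe sets were called, Acod1 came nearest, at 2.19 (SE 0.59), or 4.58-fold, higher in 3 of 3 tolerizing allografts than in either isograft (limma adjusted p = 0.0641, and 0.0521 to 0.327 over 15 alternative settings). Clec4d was at least 2.23-fold higher, as both isografts were under the floor, with no overlap (limma adjusted p = 0.508). These 2 of 6 stand beside 12.1% of genes with all tolerizing arrays above. Arg1 differed by 0.52 (SE 0.98, 95% interval -1.58 to 2.62), Mrc1 by 0.69 (SE 0.43), Nos2 by -0.27 (SE 0.50) and Chil3 by -0.20 (SE 0.71).

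Over time, limma called 4 of the 10395 probe sets in tolerizing allografts (0.0385%, with 645 at an unadjusted p under 0.05) and 0 in isografts (559 unadjusted); the 6 genes were not among the 4. From day 7 to day 70 in tolerizing allografts Chil3 differed by -1.73 (SE 0.64, limma adjusted p = 0.660), with all 3 arrays at day 70 under all 3 at day 7, as for 8.16% of genes. Of the neutrophil markers, S100a8 differed by -1.91 (SE 0.54, limma adjusted p = 0.395) and S100a9 by -1.86 (SE 0.56, limma adjusted p = 0.429), both also lower on all 3 arrays at day 70. The 11 had 0 calls (2 at an unadjusted p under 0.05) and a summed signal of 387.1 to 462.3 beside 555.4 to 1033.1. Their median was -0.27, and 3 of the 11 were higher at day 70. Their part in the Chil3 signal was not tested. Arg1 differed by -1.33 (SE 0.87), Acod1 by 0.53 (SE 0.53), Mrc1 by 0.50 (SE 0.39), Nos2 by -0.16 (SE 0.44) and Clec4d by 0.05 (SE 0.67). In isografts Arg1 differed by -1.82 (SE 0.98, limma adjusted p = 0.956) and Mrc1 by -0.99 (SE 0.43, limma adjusted p = 0.894). Both isografts at day 70 lay under all 3 at day 7 for Arg1, 1 of 6 beside 9.52% of genes. Macrophage and monocyte markers were lower in the same comparison: limma called 0 of the 16, with 10 at an unadjusted p under 0.05 and a median of -0.92, and their sums were 2478.1 and 5738.7 beside 7230.2 to 8785.1. The 11 neutrophil markers had no call, with 4 at an unadjusted limma p under 0.05. Their median was -0.16, and 5 of the 11 were higher at day 70. Among those that were lower, S100a8, S100a9 and Camp differed by -1.81 (SE 0.61), -2.06 (SE 0.63) and -2.37 (SE 0.73). The part of these cells in the Arg1 and Mrc1 signals was not tested. Nos2 differed by 0.08, Acod1 by -0.19, Chil3 by 0.31 and Clec4d by -0.21 there. The change with time of the difference between tolerizing allografts and isografts was 1.49 for Mrc1 (SE 0.58) and -2.04 for Chil3 (SE 0.96), with an adjusted p of 1 in limma for both; 0 probe sets were called and 409 had an unadjusted p under 0.05.

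For each gene, the genes closest in pattern were taken as those with the smallest root mean square difference in log2 signal over the 14 arrays after removing each gene's mean, among 7360 others. These distances describe arrays that share their groups and carry no test. Closest to Arg1 were Serpinb2, a plasminogen activator inhibitor, at 1.08, Adam8, a leukocyte metalloprotease, at 1.12, S100a8 at 1.28, S100a9 at 1.36 and Apoc2 at 1.37, where Arg1 itself had an SD of 2.59. Closest to Clec4d were again Serpinb2 (0.59) and Adam8 (0.66), then A2m (0.80), the urokinase receptor Plaur (0.88) and Crabp2 (0.96). Serpinb2 read 508.9, 160.5 and 63.2 in rejecting allografts and at most 20.4 elsewhere, and Adam8 read 779.7, 802.9 and 194.2 and at most 53.5 elsewhere. Closest to Acod1 were Il1rn, the interleukin-1 receptor antagonist (0.49), B4galnt1 (0.50), the T cell checkpoint Pdcd1 (0.51), Casp1 (0.52) and the leukocyte integrin chain Itgb2 (0.55). Those of Chil3 were the cytotoxic protease Gzmb (0.69), Il6 (0.73), Ptgs2 (0.74), Fos (0.76) and Pclaf (0.80). Mrc1 was nearest to Jam3 (0.36), Nfia (0.44), Rnase4 (0.48), Amot (0.48) and Serpina3n (0.49). Nos2 varied little (SD 0.70), and its nearest genes, Pgf (0.29), Vpreb3 and Noct (0.34 each), Hbb-bh1 (0.35) and Abcb1b (0.36), complete its list.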

How the data were processed

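The authors deposited 1 table of signal intensity, on a linear scale, for 12488 probe sets on 14 arrays; the software and scaling behind it are stated in no label or header. Every array had a trimmed mean of 100.06 to 100.07, so no scaling was added. Controls (66 probe sets) were left out, intensities under 11 were set to 11, log2 was taken, and the 10395 probe sets above 11 on at least 3 arrays, which name 7366 genes, were tested. Symbols came from the platform's annotation, updated by gene ID through RefSeq (10833 probe sets with 1 gene, 396 with several, 1193 with none). The brightest probe set stands for a gene. All 5 groups entered 1 fit in limma 3.58.1 (R 4.3.3; eBayes with intensity trend, 9 residual and 4.45 prior degrees of freedom), two-sided, with Benjamini-Hochberg adjustment and a threshold of 0.05. The fit was tested on simulated data.

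The 6 genes and all lists were chosen with earlier results of these data known. Named were the 6 genes, up to 4 called genes of each list per comparison by smallest p, Arg2, Nos3, Odc1 and Slc7a2, the 5 nearest genes of each and a few markers; others (Gch1, Pts, Spr, Stat6, Il4, Clec4e, and Hmox1 against isografts) were picked after their values were seen. In tolerizing allografts, deviations of same-numbered arrays at day 70 and day 7 correlated at 0.25 to 0.34 in all 3 pairs, as in no other comparison. The labels state no pairing, and the reported differences and p-values were not paired. The replicate number entered only as a block among the alternatives below. Precision is limited by 2 or 3 arrays a group. A further promoter motif that was searched is not reported here.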

Additional observations from a re-analysis of the deposited data

How the results depend on the processing

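With 2 or 3 arrays a group, 1 array can decide a value, and signals near the floor of 11 (Nos2, Clec4d outside rejecting allografts) have little room to show a fall. Alternatives were quantile normalization, another floor, a pseudocount, no filter, no intensity trend, the accession run as a block, the 9 arrays of high 18S signal alone, the replicate number as a block, a beta-actin covariate, the 2 groups alone and each array left out. Under these the differences of the 6 genes from rejecting allografts kept their sign, and none in the other comparisons became a call. Quantile normalization moved the median of all genes by less than 0.1.

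Called probe sets in rejecting allografts against isografts were 1842, 1153 with the 2 groups alone and 1307 to 2168 with 1 array left out. In tolerizing allografts against isografts at day 7 they were 176, 103 without a filter, 40 in the 9 arrays alone, 8 with the beta-actin covariate, 69 with the 2 groups alone and 76 to 136 with 1 array left out. In rejecting against tolerizing allografts they were 147, 235 with the floor at the 50th percentile, 63 without a filter, 43 with the covariate, 20 with the 2 groups alone and 36 to 771 with 1 array left out (771 without replicate 3 of the rejecting allografts, 36 without replicate 2 of the tolerizing ones). At day 70 they were 333, 182 in the 9 arrays alone, 37 with the 2 groups alone and 82 to 337 with 1 array left out (82 without replicate 1 of the isografts, 144 without replicate 1 of the tolerizing allografts). In tolerizing allografts over time the 4 calls were 12 with the replicate block, 0 without a filter, in the 9 arrays alone, with the covariate and with the 2 groups alone, and 0 to 34 with 1 array left out. In isografts over time the 0 calls were 9 without a filter and 0 to 32 with 1 array left out. Apart from that rise to 12 the replicate block moved no count of calls by over 1.5 times and gave the 6 genes no call.

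With a floor at the median signal, the differences from isografts in rejecting allografts were 2.38 for Acod1, 1.89 for Chil3 and 2.95 for Clec4d. In the 9 arrays alone Mrc1 differed by -0.37 between rejecting and tolerizing allografts. Signs turned for uncalled differences only, the largest of them 0.69, for Mrc1 in tolerizing allografts against isografts at day 70. In tolerizing allografts against isografts at day 7, Arg1 was -0.020 with that floor, -0.19 in the 9 arrays alone and -0.52 to 0.51 with 1 array left out, and Nos2 0.69 with the covariate and -0.30 to 0.46 with 1 array left out. At day 70 Nos2 was 0.037 and Chil3 0.13 with the covariate, and with 1 array left out Arg1 was -0.18 to 1.22, Nos2 -0.76 to 0.22, Chil3 -0.73 to 0.33 and Mrc1 -0.017 to 1.40. In tolerizing allografts over time Clec4d was -0.62 with the covariate and -0.15 to 0.32 with 1 array left out. In isografts over time Nos2 was -0.11 with the replicate block, -0.016 with the covariate and -0.42 to 0.57 with 1 array left out, Acod1 0.27 in the 9 arrays alone and -0.60 to 0.21 with 1 array left out, and Chil3 -0.22 to 0.84 with 1 array left out. The cause of these changes was not tested.

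These alternatives were run on the list counts only after seeing the data. In rejecting allografts against isografts the arginine genes called were 4 to 6 higher and 2 to 5 lower, those of interferon-gamma 10 to 14 higher, of interleukin-4 0 to 3 higher, of other routes to Arg1 5 to 9 higher, of the itaconate list 5 to 8 lower and of the lectins 5 to 7 higher.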
